A study of Rattus norvegicus with 12 samples.

Results

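The potassium channel genes described here were the rows of the count table whose symbol began with Kcn and whose counts summed to at least 50 over all columns. Of 92 such symbols, 81 met the sum, out of 18800 symbols in the table. The rule used no comparison between groups. Kcnj1 (52.66 counts) and Kcnmb2 (53) lay just inside the limit, and Kcnk7 (47) and Kcnh8 (36) just outside. The 81 genes were 25 pore-forming (alpha) subunits of voltage-gated channels, 10 auxiliary subunits of those channels, 9 silent alpha subunits, 10 subunits of calcium- or sodium-activated channels, 15 inward rectifiers, 11 tandem-pore-domain channels, and Kcnrg, a regulator that forms no channel. A filter on low counts, applied over the whole table, kept 78 of them for testing and dropped Kcnj1, Kcnk6 and Kcnmb2.

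The tissue was brain of Sprague-Dawley rats, profiled by poly(A) RNA sequencing, with no brain region, side, age or sex given. Control rats were restrained for the same time as the treated ones and had no electroacupuncture. Their columns are named as sham, although the labels mention no operation for them. Model rats had middle cerebral artery occlusion with reperfusion (MCAO/R, in which a large artery of the brain is blocked and reopened) and were restrained only. Electroacupuncture rats had the same occlusion and restraint and were stimulated through needles at Tianfu, Chize, Kongzui and Taiyuan, points of the Lung Meridian. Of the 12 labelled samples, 11 had a column, and 3 pairs of columns of a group differed by little more than sampling noise and were counted as 1 sample each. This left 3 control samples (A to C), 2 model samples (A, B) and 3 electroacupuncture samples (A to C), and values below are listed in that order. The labels do not say whether the samples are separate animals, and p-values then measure only a spread that may be technical.

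Potassium channels let potassium leave the cell, which returns the membrane to rest after an action potential and sets how easily a neuron fires again. Voltage-gated channels open on depolarization and are built from alpha subunits that carry the pore and from auxiliary subunits that change their gating and placement. Calcium- and sodium-activated channels couple potassium outflow to ion entry, inward rectifiers hold the resting potential or answer to G proteins and ATP, and tandem-pore-domain channels carry background leak. In brain, the subunits differ strongly between regions and cell types, and loss of potassium balance is a known feature of ischemic tissue.

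Depth was 9335913 to 23835724 counts per sample. Levels are given in CPM, counts relative to the library total as scaled by TMM, which are not per gene length and so are not compared between genes. The samples differed in their levels of cell type markers. The 9 hippocampal marker genes summed to 694 to 871 CPM in controls, 183 to 199 CPM in the model, 194 CPM in electroacupuncture A and 639 to 645 CPM in electroacupuncture B and C. The 11 markers of striatal medium spiny neurons summed to 153 to 350 CPM in controls, 331 to 737 CPM in the model, 4933 CPM in electroacupuncture A and 163 to 318 CPM in the other electroacupuncture samples. For 9 neocortical markers the sums were 216 to 235, 369 to 861, 418 and 247 to 274 CPM in the same order, and for 11 markers of microglia and macrophages 206 to 293, 332 to 653, 869 and 301 to 310 CPM. The 7 general neuronal markers were all detected, at 3713 CPM in electroacupuncture A and 5762 to 9873 CPM elsewhere. No marker was at 0 in every sample, while Iyd, Oxt and Gad2 were at 0 in some. The samples compared in every result below differ in these levels, and the part of these levels in the results was not tested. In such bulk samples, fewer cells of a type and less RNA per cell cannot be told apart.

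**Figure D1:**
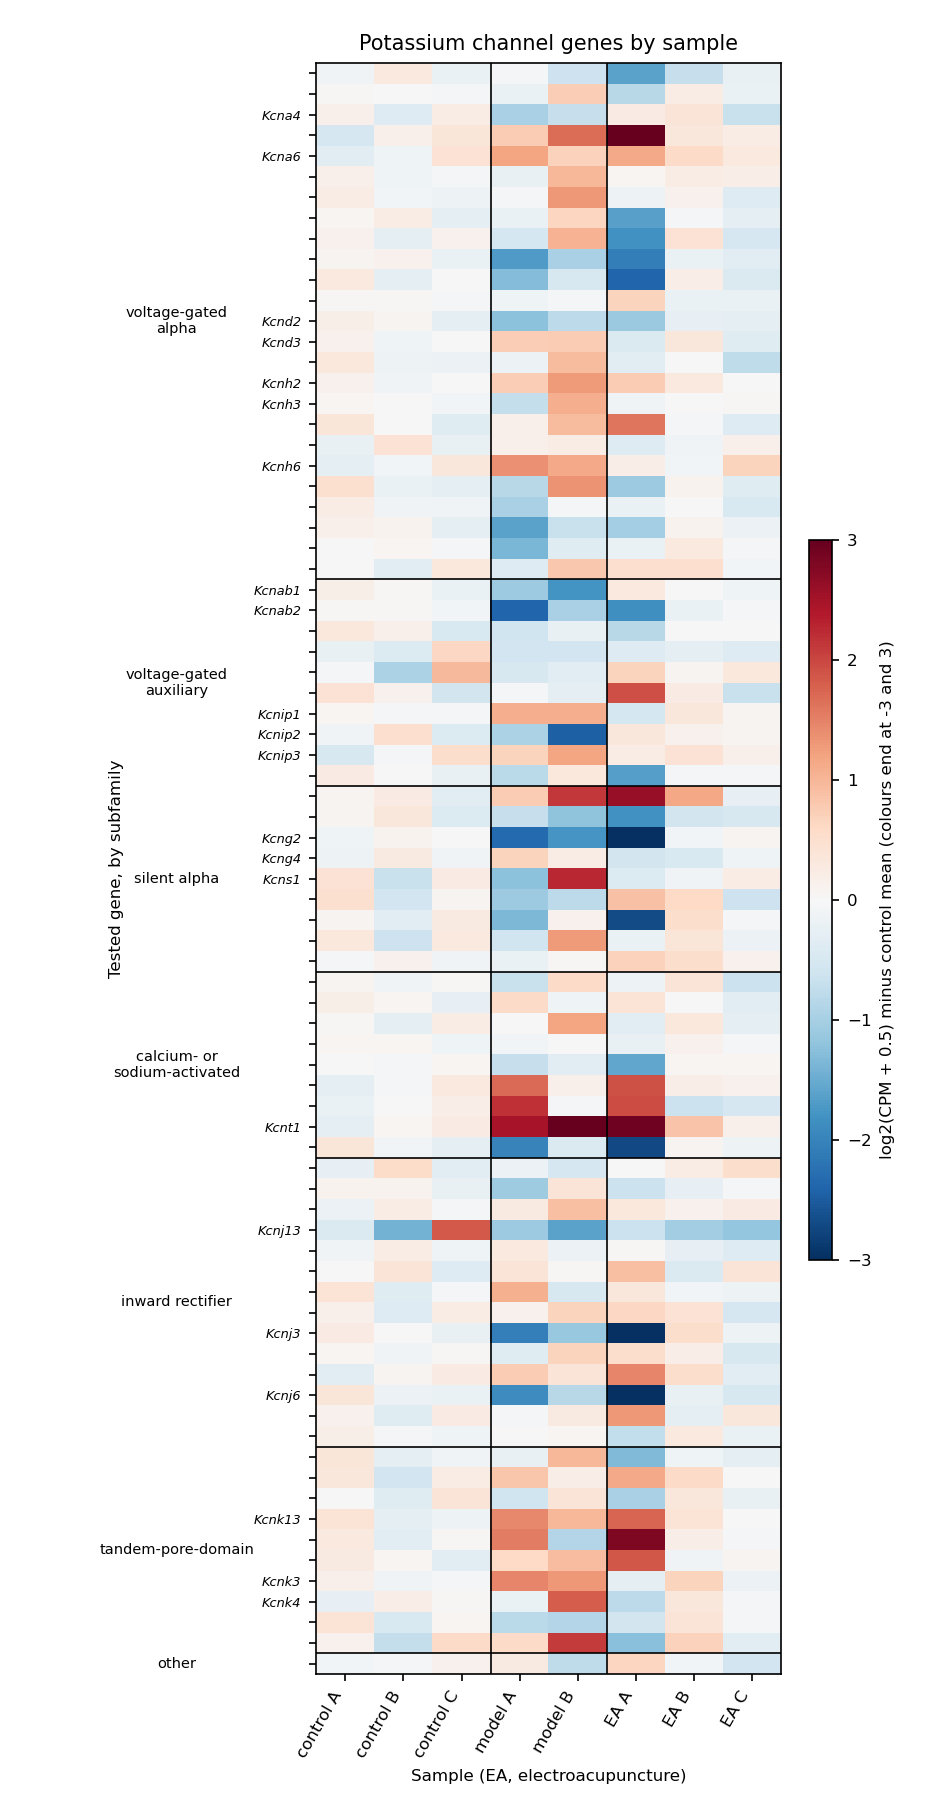
Each row is 1 of the 78 tested potassium channel genes and each column 1 sample. Colour gives log2(CPM + 0.5) minus the mean of the 3 controls, and colours end at -3 and 3. Rows are grouped by subfamily, and only some are labelled. Electroacupuncture A differs from electroacupuncture B and C in many rows (Kcnj6, Kcnj3, Kcng2), and the model samples differ from each other in many (Kcns1, Kcnk4, Kcnh3).

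The comparison of model with control asks how these genes differed after the occlusion. No potassium channel gene passed (0 of 78 at an edgeR adjusted p under 0.05, lowest 0.117 for Kcnab1). The background was 0.00646% of 15487 genes, which is 1 gene. DESeq2 called 7 members (8.97%, against 4.93% of all genes). At an unadjusted p under 0.05, 10 members were higher in the model (12.8%, against 7.61% of all genes) and 11 lower (14.1%, against 6.2%). Both model samples lay above every control for 14 members (17.9%, against 18.1% of all genes) and below every control for 18 (23.1%, against 19.8%), so these shares were near the background. In estimate, 45 of the 78 were higher and 33 lower. Of all 15487 genes, 7970 were higher and 7517 lower, which is the background for the subfamily counts below. The median log2 fold change of the 78 was 0.28, against 0.02 over all genes. It turned to -0.21 without model B. The unadjusted counts moved to 20 higher and 2 lower without model A, and to 8 higher and 4 lower without control A.

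The A-type current activates below the firing threshold and delays the next spike, and the genes of its channels differed in both directions between model and control, with none passing. Their pores are made by Kcnd1, Kcnd2 and Kcnd3 (the Kv4 family), their calcium-binding partners by Kcnip1 to Kcnip4 (the KChIP proteins), and their membrane-spanning partners by Dpp6 and Dpp10. Kcnip1 measured 10.7, 10 and 10.1 CPM for control, 22.3 and 22.3 CPM for model, and 7.02, 13.1 and 11 CPM for electroacupuncture. Both model samples were nearly equal to each other and above all other samples, 2.17-fold over control in the fit (log2 fold change 1.12, SE 0.26, edgeR adjusted p = 0.17). Kcnd3 measured 39.7, 33 and 36.4 CPM for control, 61 and 61.9 CPM for model, and 26.5, 45.8 and 28 CPM for electroacupuncture. It too was highest in both model samples (log2 fold change 0.76, SE 0.24, edgeR adjusted p = 0.244).

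Kcnd2, the main A-type pore of hippocampal dendrites, went the other way. It measured 132, 123 and 96.1 CPM for control, 49.1 and 66.6 CPM for model, and 53.7, 97.2 and 94.1 CPM for electroacupuncture. Both model samples were below every control, and electroacupuncture A lay between them (log2 fold change -1.01, SE 0.30, edgeR adjusted p = 0.213 for model against control). Kcnip2, the main KChIP of heart muscle and also found in forebrain, measured 89, 134 and 72.1 CPM for control, 49.5 and 17.1 CPM for model, and 121, 104 and 100.2 CPM for electroacupuncture. Model A and B were the lowest samples of all, though far from each other (log2 fold change -1.56, SE 0.45, edgeR adjusted p = 0.21). Kcnip3, which also acts as a transcriptional repressor under the name DREAM, measured 35, 47.3 and 71.3 CPM for control, 78.5 and 112 CPM for model, and 57.2, 66.8 and 54.8 CPM for electroacupuncture, with both model samples above all others (edgeR adjusted p = 0.257). Kcnip4 did not separate the groups, at 125, 103 and 89.1 CPM for control, 59.4 and 129.7 CPM for model, and 33.2, 101 and 100.1 CPM for electroacupuncture. Kcnd1 stayed between 11.9 and 22.3 CPM, with its highest value in electroacupuncture A.

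Dpp10, from the list of partner genes, had a larger difference than any of these channel subunits. It measured 15.1, 17.2 and 21.3 CPM for control, 79.2 and 126 CPM for model, and 30.5, 30 and 21.1 CPM for electroacupuncture. Both model samples were above all 6 others, 5.74-fold above control in the fit (log2 fold change 2.52, SE 0.27), and it did not pass over all genes (edgeR adjusted p = 0.0678). It passed under 5 alternatives: DESeq2, all columns as separate libraries, the fit of the compared groups only, and the fits without model A or without electroacupuncture A. Its close relative Dpp6 measured 285, 219.5 and 273 CPM for control, 129.5 and 209 CPM for model, and 193, 289 and 206 CPM for electroacupuncture, lower in both model samples than in any control (edgeR adjusted p = 0.383). So Kcnip1, Kcnip3, Kcnd3 and Dpp10 were higher in both model samples than in every other sample, while Kcnd2, Kcnip2 and Dpp6 were lower there than in every control.

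**Figure D2:**
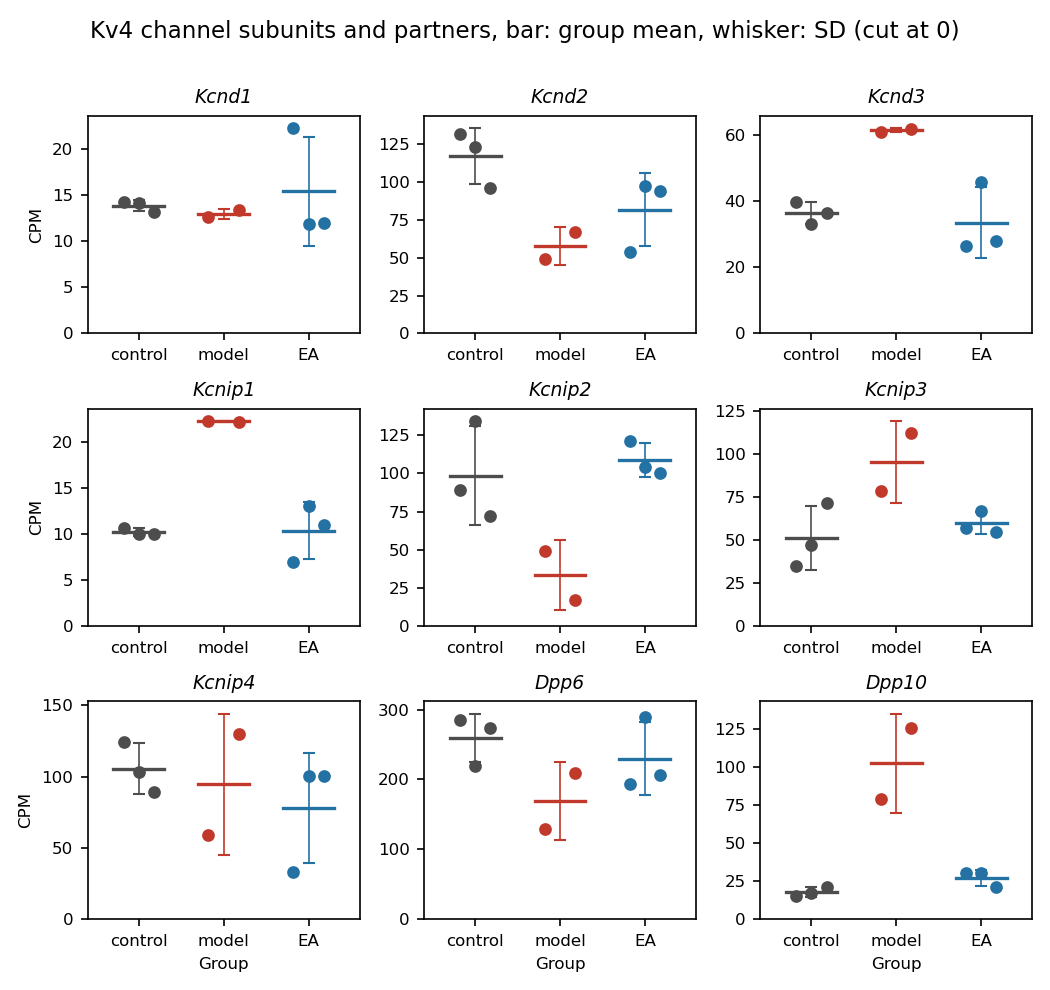
Level in CPM of the subunits and partners of A-type channels. Each point is 1 sample, the bar is the group mean and the whisker the SD (3 control, 2 model and 3 electroacupuncture samples). The model points of Kcnip1, Kcnip3, Kcnd3 and Dpp10 lie above all other points, and those of Kcnip2 below.

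Among the other auxiliary subunits, Kcnab1 and Kcnab2, beta subunits of Shaker-type channels, had the largest log2 fold changes, and the beta subunit Kcnab3 differed less (-0.47, SE 0.40). Kcnab1, whose product speeds inactivation of these channels, measured 156, 141 and 119.6 CPM for control, 64.6 and 39.7 CPM for model, and 168, 137 and 127 CPM for electroacupuncture. Both model samples were lower than all 6 others and did not overlap with either group (log2 fold change -1.41, SE 0.25, a 2.66-fold lower level). Kcnab2, a beta subunit that helps place channels on axons, measured 860.0, 852 and 789.6 CPM for control, 160.0 and 425 CPM for model, and 233, 729 and 794 CPM for electroacupuncture. Model A and electroacupuncture A were far below the rest, with model B between (log2 fold change -1.51, SE 0.59, edgeR adjusted p = 0.319). Kcnab3 measured 3.21 to 7.69 CPM with overlapping groups. Of the 10 auxiliary genes, 8 were lower in estimate (median log2 fold change -0.59), and 2 were higher, Kcnip1 and Kcnip3.

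The promoters of 4 of these auxiliary and pore genes are shown, chosen after their values were seen. Both model samples were below all others for Kcnab1 and Kcnip2, and above all others for Kcnd3 and Kcnip1. None of the 4 passed, and whether they vary together was not tested. The 150 bases before the annotated start are given 5′ to 3′, from RefSeq on assembly GRCr8, and the deposited counts name no assembly. Capitals mark a GC box (GGGCGG or CCGCCC on the other strand) or a CCAAT box (CCAAT or ATTGG), and TATAAA or TTTATA (the TATA box) was searched as well. These motifs shared no base in the windows shown.
Kcnab1, chr2:151614401-151614550, plus strand: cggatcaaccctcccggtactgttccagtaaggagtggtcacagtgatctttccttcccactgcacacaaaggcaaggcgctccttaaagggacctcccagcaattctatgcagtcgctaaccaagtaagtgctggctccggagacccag
Kcnip2, chr1:254613899-254614048, minus strand: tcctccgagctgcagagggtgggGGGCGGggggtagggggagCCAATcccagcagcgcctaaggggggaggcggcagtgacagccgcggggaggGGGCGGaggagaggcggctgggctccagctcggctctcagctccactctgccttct
Kcnd3, chr2:195626166-195626315, plus strand: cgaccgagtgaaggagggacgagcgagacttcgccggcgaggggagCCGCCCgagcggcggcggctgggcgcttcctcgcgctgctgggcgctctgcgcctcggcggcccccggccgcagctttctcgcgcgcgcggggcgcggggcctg
Kcnip1, chr10:18940810-18940959, minus strand: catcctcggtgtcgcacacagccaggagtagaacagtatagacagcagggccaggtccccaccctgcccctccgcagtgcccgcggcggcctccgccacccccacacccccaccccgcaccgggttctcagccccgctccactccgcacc
Kcnip1, chr10:19093026-19093175, minus strand: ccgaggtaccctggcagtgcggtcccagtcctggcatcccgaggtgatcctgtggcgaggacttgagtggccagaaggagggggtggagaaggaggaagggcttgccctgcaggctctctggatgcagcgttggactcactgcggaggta

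Kcnip1 has 2 annotated starts and is shown with both. The windows of Kcnab1 and of Kcnip1 held none of the motifs, that of Kcnip2 held 2 GC boxes and 1 CCAAT box, and that of Kcnd3 held 1 GC box. The base composition differed, with 54.7% G and C for Kcnab1, 72.7% for Kcnip2, 80% for Kcnd3, and 71.3% and 64% for the starts of Kcnip1. RefSeq promoters matched 54 of the 81 members, with 60 starts in all. A GC box stood in 40% of those 60 windows and in 26% of 33469 windows of all genes, a CCAAT box in 16.7% and 23.5%, and a TATA box in 3.33% and 8%. With only 2 lower and 2 higher genes, chosen after their values were seen, these windows cannot show whether such letters set the genes apart.

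Of the voltage-gated alpha subunits, 16 of 25 were higher in estimate in the model (median log2 fold change 0.34). Their median level, as a log2 difference from the control mean, was -0.21 in model A but 0.73 in model B, so the 2 model samples went opposite ways. The Ether-a-go-go family (Kcnh), which includes the ERG channels that damp repeated firing, gave 2 of the more even differences. Kcnh2, the main ERG subunit, measured 12.5, 10.5 and 11.3 CPM for control, 19.4 and 28.4 CPM for model, and 19.6, 13.9 and 11.3 CPM for electroacupuncture (log2 fold change 1.07, SE 0.27, edgeR adjusted p = 0.182). Model B was highest, and model A and electroacupuncture A stood nearly equal above the remaining values. Kcnh6, another ERG subunit, measured 1.74, 2.05 and 2.93 CPM for control, 6.42 and 5.45 CPM for model, and 2.6, 2.04 and 3.79 CPM for electroacupuncture, with both model samples above all others (log2 fold change 1.41, SE 0.38, edgeR adjusted p = 0.188). Kcnh1 and Kcnh7 were high in model B alone, at 66 and 65 CPM against 29.8 and 14 CPM in model A. The controls measured 42.5, 30.6 and 30 CPM for Kcnh1 and 35.6, 21.8 and 20.8 CPM for Kcnh7.

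Shaker-type alpha subunits (Kcna), which act on axons and terminals, divided. Kcna6 measured 32, 36.7 and 53.9 CPM for control, 90.9 and 65 CPM for model, and 87.8, 59.7 and 48.6 CPM for electroacupuncture, so the model and electroacupuncture A were highest (model against control log2 fold change 0.93, SE 0.31, edgeR adjusted p = 0.263). Kcna4, an A-type member of this family, measured 28.9, 19.5 and 30.3 CPM for control, 13 and 15.9 CPM for model, and 30.6, 33.6 and 16.1 CPM for electroacupuncture, with both model samples below every control. Kcna1 and Kcna2, the axonal subunits beside the nodes of Ranvier, overlapped between model and control. Kcna1 measured 41.5, 55.1 and 38.7 CPM for control, 42.7 and 28.6 CPM for model, and 14.2, 27.6 and 37.8 CPM for electroacupuncture, and Kcna2 85.8, 83.4 and 81.6 CPM for control, 72.9 and 139 CPM for model, and 46.8, 97.3 and 72.9 CPM for electroacupuncture, highest in model B. Kcna5, a subunit with more known roles in muscle and microglia, measured 0.183, 0.568 and 0.733 CPM for control, 1.12 and 2.56 CPM for model, and 10.8, 0.722 and 0.632 CPM for electroacupuncture, with its highest value in electroacupuncture A.

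Kcnc subunits (Kv3 channels), which shorten spikes in fast-firing neurons, included Kcnc1 and Kcnc2. Kcnc1 measured 89.4, 99.6 and 70.9 CPM for control, 74.3 and 135 CPM for model, and 27.5, 82.2 and 71.3 CPM for electroacupuncture, and Kcnc2 23.9, 18.2 and 24.1 CPM for control, 15.2 and 45.8 CPM for model, and 5.81, 29.8 and 15.4 CPM for electroacupuncture. For both, model B was the highest sample and electroacupuncture A the lowest. Kcnb2, a delayed rectifier, was also highest in model B, at 13.6 CPM against 6.23, 4.89 and 4.67 CPM for control. Model A, at 5.03 CPM, lay within the control values.

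Kcnq subunits carry the M-current, a slow brake on firing that acetylcholine releases. Kcnq3, one of its subunits, measured 21, 20.5 and 15.7 CPM for control, 5.84 and 11.6 CPM for model, and 9.1, 20.4 and 16.5 CPM for electroacupuncture, so both model samples and electroacupuncture A were below every control (model against control log2 fold change -1.12, SE 0.41, edgeR adjusted p = 0.294). Kcnq5 ran from 21.1 CPM in model A to 49 CPM in model B.

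Silent alpha subunits form no channel alone and alter the delayed rectifier when they join it. Kcng2 measured 70.4, 82.5 and 77.8 CPM for control, 14.8 and 22.1 CPM for model, and 7.8, 72.4 and 81.6 CPM for electroacupuncture. Both model samples and electroacupuncture A lay between 7.8 and 22.1 CPM, and the other 5 samples between 70.4 and 82.5 CPM (model against control log2 fold change -2.05, SE 0.84, edgeR adjusted p = 0.341). The same 3 samples had the lowest sums of hippocampal markers. Kcng1 measured 32.1, 38.3 and 22.8 CPM for control, 18.6 and 12.9 CPM for model, and 8.23, 20.6 and 21.5 CPM for electroacupuncture, and Kcng4 41.4, 55.8 and 43.1 CPM for control, 74.5 and 54.3 CPM for model, and 31.7, 33.7 and 42.6 CPM for electroacupuncture. Kcnf1 measured 0.641, 0.795 and 0.366 CPM for control, 1.34 and 4.25 CPM for model, and 6.15, 1.91 and 0.422 CPM for electroacupuncture, above every control in both model samples but unequal between them (edgeR adjusted p = 0.384). Of the 9 silent subunits, 4 were higher and 5 lower in estimate (median log2 fold change -0.09).

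Kcnt1, the sodium-activated channel also called Slack, had the largest higher estimate among the members. It measured 25, 31.6 and 36.1 CPM for control, 172 and 245 CPM for model, and 233, 55.5 and 33.9 CPM for electroacupuncture. Both model samples and electroacupuncture A lay between 172 and 245 CPM and the other 5 samples between 25 and 55.5 CPM. Model against control gave a 6.77-fold difference (log2 fold change 2.76, SE 0.73, edgeR adjusted p = 0.188). These were again the 3 samples with low hippocampal markers. Its relative Kcnt2 ran opposite, at 24.7, 18.1 and 15.8 CPM for control, 4.39 and 14.2 CPM for model, and 2.51, 20.5 and 17.3 CPM for electroacupuncture, with both model samples below every control.

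Of the calcium-activated channels, Kcnn1 (a small-conductance SK channel that dampens firing after a spike) was level across samples, at 11.6 to 15.1 CPM. Kcnn2, an SK channel of hippocampal neurons, measured 71.1, 67.8 and 73.3 CPM for control, 43.6 and 56.7 CPM for model, and 23.8, 73.8 and 73.9 CPM for electroacupuncture, lower in both model samples than in any control and lowest in electroacupuncture A. Kcnn3 measured 2.38, 2.84 and 3.75 CPM for control, 10.8 and 3.33 CPM for model, and 12.4, 3.48 and 3.27 CPM for electroacupuncture, and Kcnn4, a channel of microglia and blood cells, 0.641, 0.795 and 1.01 CPM for control, 5.51 and 0.764 CPM for model, and 4.59, 0.34 and 0.422 CPM for electroacupuncture. Both were high in model A and electroacupuncture A, which also had the highest sums of the microglia and macrophage markers (653 and 869 CPM). Kcnma1, the large-conductance BK pore, measured 7.12 to 17.5 CPM, lowest in model A and highest in model B. Kcnmb4, its neuronal beta subunit, measured 83.9 CPM in model B and 29.4 to 45.3 CPM in the others.

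**Figure D3:**
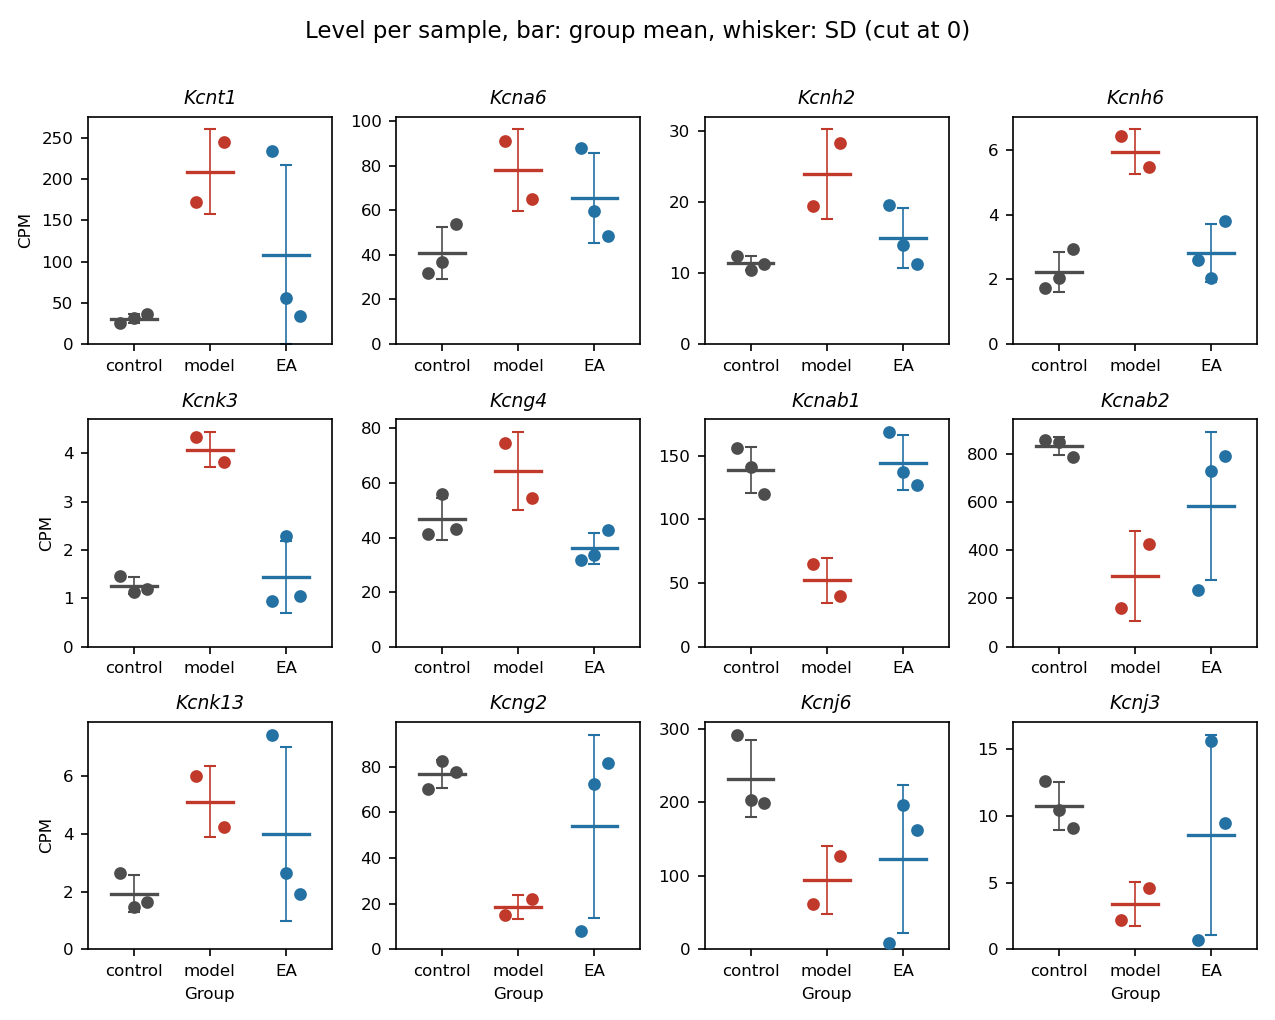
Level in CPM of potassium channel genes described in the text. Each point is 1 sample, the bar is the group mean and the whisker the SD, which ends at 0 where it would go below. Kcnab1 is low in both model samples only, whereas Kcnt1, Kcng2, Kcnj3 and Kcnj6 place electroacupuncture A with or beyond the model samples.

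Of the 14 tested inward rectifiers, 9 were higher and 5 lower in estimate, with a median log2 fold change of 0.09. The G-protein-gated (GIRK) subunits Kcnj3 and Kcnj6, through which many transmitters inhibit neurons, were lower in both model samples than in every control. Kcnj6 measured 292, 203 and 199 CPM for control, 61.5 and 127 CPM for model, and 8.41, 196 and 163 CPM for electroacupuncture, and electroacupuncture A was far below all others (model against control log2 fold change -1.29, SE 1.04, edgeR adjusted p = 0.604). Kcnj3 measured 12.6, 10.5 and 9.06 CPM for control, 2.2 and 4.58 CPM for model, and 0.693, 15.6 and 9.49 CPM for electroacupuncture, again lowest in electroacupuncture A (edgeR adjusted p = 0.487). Kcnj9, another GIRK subunit, measured 13.4 to 27.9 CPM with overlapping groups. Kcnj4, a forebrain subunit of strong rectifiers, measured 43.3, 38.6 and 42.4 CPM for control, 32 and 66.6 CPM for model, and 59.7, 47.5 and 29.6 CPM for electroacupuncture, with no separation of groups. Kcnj12, another strong rectifier, was above every control in both model samples, at 11.3 and 17.8 CPM for model against 8.15, 10.9 and 9.06 CPM for control (edgeR adjusted p = 0.319).

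The glial and vascular rectifiers overlapped between model and control. Kcnj10, the astrocyte channel that clears potassium from around neurons, measured 11.6, 20.5 and 11 CPM for control, 12.2 and 9.54 CPM for model, and 13.8, 16.2 and 20.2 CPM for electroacupuncture, with each electroacupuncture sample above both model samples (edgeR adjusted p = 0.467). Its partner Kcnj16 measured 16.2, 9.2 and 11.7 CPM for control, 25.9 and 8.45 CPM for model, and 15.3, 11.4 and 10.8 CPM for electroacupuncture. Kcnj8, a pore of ATP-sensitive channels in mural cells, measured 6.41 CPM in electroacupuncture A and at most 3.06 CPM elsewhere, and the mural marker sum was also highest there (165 CPM, against 72.7 to 106 CPM). The neuronal ATP-sensitive pore Kcnj11 measured 28, 28.4 and 22.5 CPM for control, 12.3 and 34.5 CPM for model, and 16.6, 22 and 25.5 CPM for electroacupuncture, lowest in model A and highest in model B. Kcnj13, a channel of choroid plexus epithelium, stood at 8.61 CPM in control C and at most 1.37 CPM in the rest. Control C also held the highest sum of 6 choroid plexus markers, 1360 CPM against 7.27 to 93.4 CPM in the other 7 samples. Ttr alone gave 1344 CPM of that sum. Otx2, Kl and Aqp1 were highest in control C too, at low levels. Folr1 and Clic6 were highest in electroacupuncture A, at 9.01 and 2.77 CPM against 6.41 and 1.83 CPM in control C. The fitted log2 fold change of Kcnj13 in the model was -2.75 (SE 1.17), and without control C it was -0.84 (SE 0.76). Kcne2, an auxiliary subunit also found in this epithelium, was likewise highest in control C, at 9.8 CPM against 3.96 to 5.22 CPM.

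Tandem-pore-domain channels were higher in estimate for 8 of 10 tested members in the model, against 7970 of all 15487 genes. Their median log2 fold change (0.83) was the highest of any subfamily, and none passed. Kcnk3, an acid-sensitive leak channel (TASK), measured 1.47, 1.14 and 1.19 CPM for control, 4.34 and 3.82 CPM for model, and 0.953, 2.29 and 1.05 CPM for electroacupuncture. Both model samples were above all others (log2 fold change 1.68, SE 0.45, edgeR adjusted p = 0.188). Kcnk13, a leak channel of microglia, measured 2.66, 1.48 and 1.65 CPM for control, 6 and 4.25 CPM for model, and 7.45, 2.63 and 1.9 CPM for electroacupuncture. The sums of microglia and macrophage markers were highest in the same 3 samples, but the sum in model B was little above the next one (332 CPM, against 310 CPM in electroacupuncture B). Kcnk2, the mechanosensitive channel TREK, measured 18.8, 16.1 and 12.3 CPM for control, 23.6 and 29.9 CPM for model, and 57.8, 14.3 and 16.3 CPM for electroacupuncture, above every control in the model and highest in electroacupuncture A. Kcnk10, its relative, measured 0.682 to 3.38 CPM, again highest there. Kcnk1 measured 85.6, 55.7 and 62.5 CPM for control, 57.1 and 134 CPM for model, and 26.4, 60.6 and 54.9 CPM for electroacupuncture, and Kcnk4 and Kcnk9 had the same order, with model B highest and electroacupuncture A lowest. Kcnk4 reached 93.9 CPM in model B against 23 CPM in model A, and Kcnk9 14.3 against 4.66 CPM. As a log2 difference from the control mean, the subfamily's median level was 0.59 and 0.96 for the model samples and -0.41, 0.36 and -0.07 for the electroacupuncture samples, so electroacupuncture A was the lowest.

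**Figure D4:**
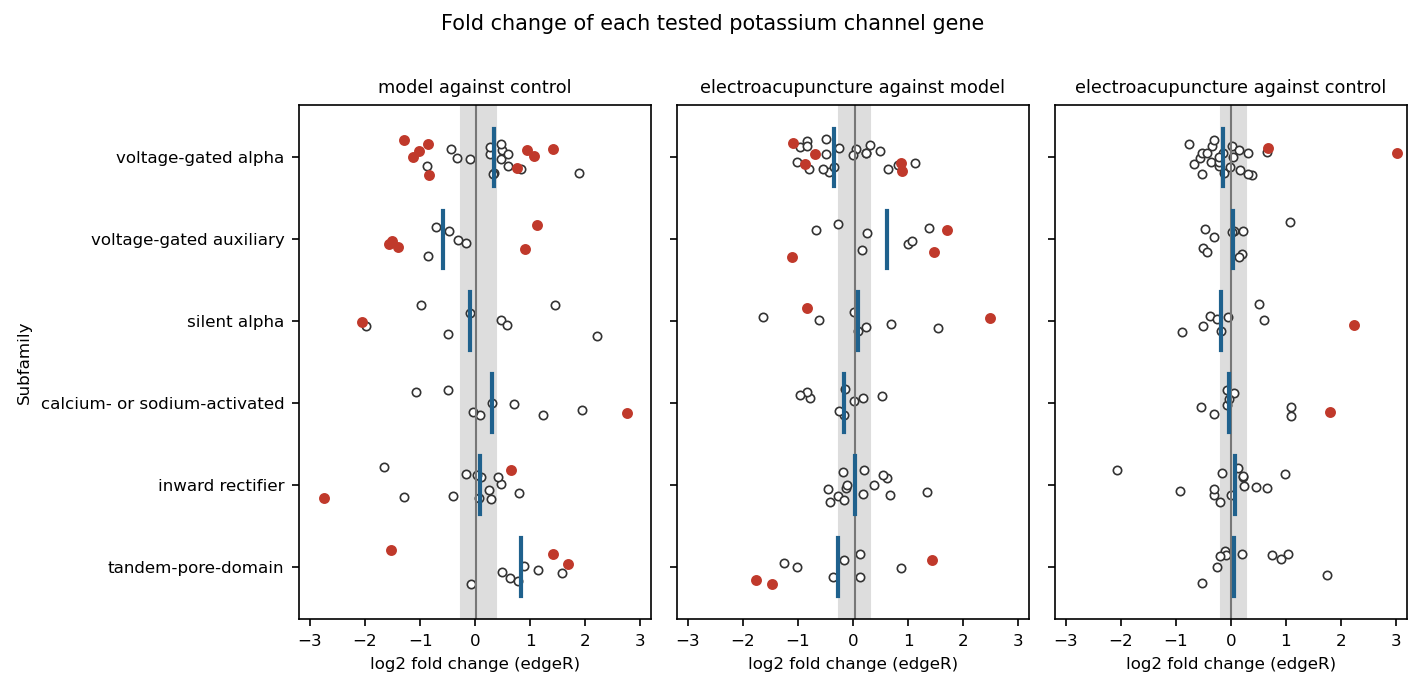
Log2 fold change of each tested member by subfamily in the 3 comparisons, from edgeR. Kcnrg, which belongs to no subfamily, is left out. Filled red points have an unadjusted p under 0.05, the blue line is the subfamily's median, and the grey line and band are the median and quartiles of all 15487 genes. Tandem-pore-domain channels have the highest median in model against control (0.83) and auxiliary subunits the lowest (-0.59).

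The next comparison was of electroacupuncture with model, both with the occlusion. No member passed (0 of 78, lowest edgeR adjusted p 0.135 for Kcnab1, and 0% of all genes). DESeq2 called 5 (6.41%, against 4.51% of all genes). At an unadjusted p under 0.05, 6 members were higher (7.69%, against 6.3% of all genes) and 7 lower (8.97%, against 7.18%). All 3 electroacupuncture samples were above both model samples for 10 members (12.8%, against 13% of all genes) and below both for 7 (8.97%, against 11.7%). The median log2 fold change was -0.06, against 0.03 over all genes. It was 0.28 without model B and -0.29 without electroacupuncture A. Since this comparison shares the model samples with the one before, its fold changes are not independent of it.

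Kcnab1 had the smallest unadjusted p of the members here too (0.000505). With means of 52.2 ± 17.6 CPM (SD, n = 2) for the model and 144 ± 21.6 CPM (SD, n = 3) for electroacupuncture, it was 2.76-fold higher in the fit (log2 fold change 1.47, SE 0.25). Kcnip2 was 3.26-fold higher, with means of 33.3 ± 22.9 and 109 ± 11.2 CPM (log2 fold change 1.71, SE 0.46, edgeR adjusted p = 0.195). For both genes every electroacupuncture sample, electroacupuncture A included, lay at or above the lowest control. Kcna4 was higher without overlap as well (log2 fold change 0.89, SE 0.34, edgeR adjusted p = 0.321). The same held for Kcne4, at 0.803 and 0.982 CPM for model and 2.43, 1.44 and 1.79 CPM for electroacupuncture, and Kcnv2, at 1.18 and 1.47 CPM for model and 2.6, 2.25 and 1.58 CPM for electroacupuncture, both at low levels. Kcns2 and Kcnk5, also at low levels, were higher too, with 0.161 and 0.327 CPM for model and 2.08, 1.66 and 0.422 CPM for electroacupuncture for the silent subunit Kcns2.

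Lower without overlap were Kcnip1, Kcnd3 and Kcnip3 of the A-type channels, and Kcng4, Kcnk3 and Kcnh6. Kcnip1 had means of 22.3 ± 0.0524 and 10.4 ± 3.1 CPM for model and electroacupuncture (log2 fold change -1.10, SE 0.26, edgeR adjusted p = 0.167). Kcnd3 had means of 61.4 ± 0.651 and 33.5 ± 10.7 CPM (log2 fold change -0.88, SE 0.24, edgeR adjusted p = 0.203). For Kcng4, a silent subunit, the means were 64.4 ± 14.3 and 36 ± 5.79 CPM (log2 fold change -0.84, SE 0.21, edgeR adjusted p = 0.179). Kcnk3 and Kcnh6 differed by -1.47 (SE 0.45) and -1.09 (SE 0.38) on the log2 scale, and Kcnip3 by -0.68 (SE 0.30). Dpp10 was lower in all 3 electroacupuncture samples than in both model samples (log2 fold change -1.91, SE 0.26, edgeR adjusted p = 0.135).

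Leaving out electroacupuncture A, which had the striatal marker sum of 4933 CPM, gave 3 calls in this comparison (3.9% of 77 members, against 1.82% of all genes). Kcng2 and Kcnab1 rose and Kcnt1 fell in that fit, in edgeR at an adjusted p under 0.05. Without model A, Kcnab1 and Kcnip2 rose and Kcnh3 fell (3.8% of 79 members, against 1.93% of all genes). For model against control, the fit without electroacupuncture A called 7 members (9.09%, against 3.7% of all genes), among them Kcnt1, Kcnip1 and Kcnh2 as higher and Kcng2, Kcnab1 and Kcnd2 as lower. The fit without model A called 4 members of 79 (5.06%, against 2.23% of all genes), among them Kcnh3 as higher and Kcnab1 and Kcnip2 as lower. That fit compares model B alone with the controls and assumes that this sample varies as the others do. Kcnh3, a forebrain channel of the Kcnh family, measured 73.8, 70.6 and 66.8 CPM for control, 42.6 and 151 CPM for model, and 65.6, 70 and 72.3 CPM for electroacupuncture, so model B alone stood above the other samples.

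Electroacupuncture was also compared with control, to ask how treated rats stood against rats without the occlusion. Both groups already entered the comparisons above. No member passed (0 of 78, 0% of all genes, lowest edgeR adjusted p 0.843), and DESeq2 called 0. At an unadjusted p under 0.05, 4 were higher (5.13%, against 2.71% of all genes) and 0 lower (against 0.956%). The 4 were Kcna5, Kcna6, Kcnf1 and Kcnt1, and without electroacupuncture A, or without control A, 0 members had such a p. All 3 electroacupuncture samples lay below every control for 4 members (5.13%, against 4.89%), among them Kcna1, Kcng1 and Kcnj6, and above every control for 0 (against 5.97%). Kcng1 had means of 31.1 ± 7.79 and 16.8 ± 7.43 CPM for control and electroacupuncture (log2 fold change -0.88, SE 0.38, edgeR adjusted p = 0.843). Kcna1 differed by -0.76 (SE 0.35) and Kcnj6 by -0.92 (SE 0.90) on the log2 scale. The median log2 fold change was -0.04, against 0.01 over all genes.

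A single sample often held the extreme value of a gene. Electroacupuncture A was the highest or lowest of the 8 samples for 45 of 78 members (57.7%, against 48.6% of all genes), being the highest for 17 and the lowest for 28. Model B was extreme for 33 members (42.3%, against 31.4%) and was the highest for 25 of them, and model A was extreme for 24 (30.8%, against 30.5%). The other 5 samples were each extreme for 6 to 16 members. Among members with a mean of at least 5 CPM, Kcnj6, Kcnj3, Kcng2, Kcnt1 and Kcns3 had the largest ranges over samples. Kcns3, a silent subunit, measured 6.41, 4.66 and 7.33 CPM for control, 2.09 and 6.6 CPM for model, and 0.52, 8.96 and 5.8 CPM for electroacupuncture. In all 5, electroacupuncture A stood far from electroacupuncture B and C.

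**Figure D5:**
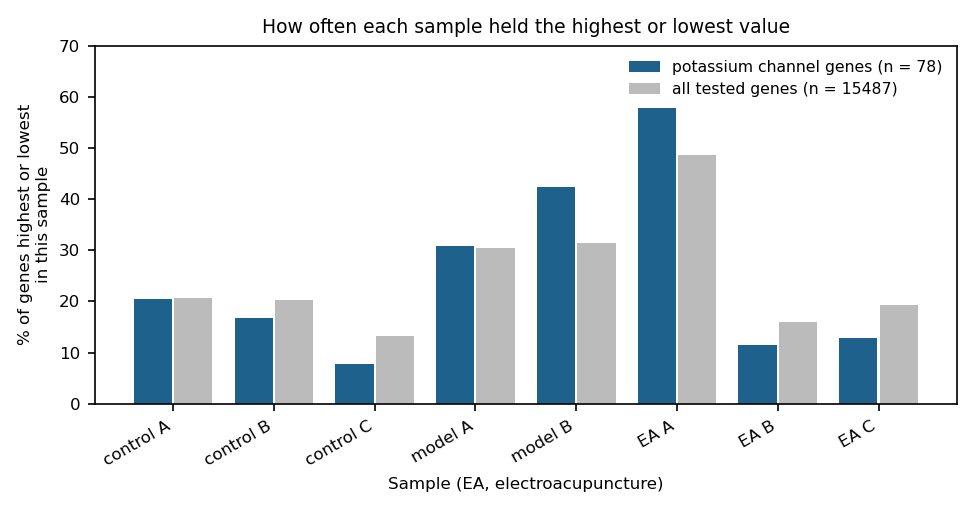
For each sample, the percentage of genes whose highest or lowest level among the 8 samples was in it, for the 78 tested potassium channel genes (blue) and all 15487 tested genes (grey). Electroacupuncture A (57.7% of members) and model B (42.3%) lead, and control C is lowest (7.69%).

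The list of 28 partner genes, whose products bind, place or resemble potassium channels, held 27 symbols of the table and 25 tested genes. None passed in any edgeR comparison (0 of 25 each). In model against control, 2 of 25 had an unadjusted p under 0.05 and were higher (Dpp10 and Hcn3, against 7.61% of all genes), and 3 were lower (Lgi1, Sptbn4 and Dlg4, against 6.2%). The median log2 fold change was -0.19. At the same unadjusted p, 1 was higher for electroacupuncture against model (Dlg4, against 6.3% of all genes) and 2 were lower (Dpp10 and Hcn3, against 7.18%). For electroacupuncture against control 4 were higher (Dpp10, Hcn3, Dlg1 and Abcc9, against 2.71%) and 0 lower (against 0.956%). Hcn3, a pacemaker channel, measured 1.92, 1.7 and 1.83 CPM for control, 5.78 and 6.71 CPM for model, and 4.77, 3.44 and 2.11 CPM for electroacupuncture (log2 fold change 1.78, SE 0.38, edgeR adjusted p = 0.146). Lgi1, a secreted protein that keeps Shaker-type channels from inactivating, measured 52.6, 42.9 and 50.9 CPM for control, 11.9 and 25.9 CPM for model, and 19.7, 56.8 and 41.6 CPM for electroacupuncture, with both model samples below every control and electroacupuncture A between these. Dlg4 (PSD-95), the synaptic scaffold that clusters Shaker-type and Kir channels, measured 821, 709 and 707 CPM for control, 364 and 621 CPM for model, and 804, 772 and 725 CPM for electroacupuncture, and both model samples were below all 6 others (log2 fold change -0.60, SE 0.25, edgeR adjusted p = 0.347).

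Whether reads shared with other genes entered these values was not tested. Of the 81 members, 34 had a fractional count in at least 1 of 11 columns (a count more than 1e-06 from a whole number), among them Kcnab1, Kcnip2, Kcnab2, Kcnk3, Kcng4 and Kcnj6. Kcnt1, Kcng2, Kcnip1, Kcnd3, Kcnh2, Kcnh6 and Kcnj3 had whole counts in every column.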

How the data were processed

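The deposited table holds the authors' estimated counts (expected counts, some of them fractional) in 11 columns. The submitters' processing notes name featureCounts 1.5.0-p3, StringTie 1.3.3b, HISAT2 2.0.5 and DESeq2 1.16.1, with no role or order. Genome build and strand setting: not given in the sources used here. A column's name showed its group only. Symbols on 2 rows (4 symbols) were summed and values rounded to whole numbers. Columns of a group whose median squared difference was under 2 times the sampling variance were summed (3 pairs, 1.343 to 1.401 times, against 4.749 or more for the other pairs within a group), which left 8 samples of the 12 labelled.

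The main test was edgeR's two-sided quasi-likelihood test (version 4.0.16, R 4.3.3), robust, with TMM scaling and the default filter by group, in 1 fit of all 8 samples (5 residual degrees of freedom). P-values were adjusted by Benjamini-Hochberg over all 15487 genes and called under 0.05. The fit was run on simulated data with planted changes larger than most fold changes given here. How often it would call smaller changes was not tested. Standard errors come from the F statistic. Counting error was not set apart from the spread between samples, and it weighs most on genes near 1 CPM. An SD of 2 model samples can fall below counting error, as for Kcnip1 (0.0524 CPM) and Kcnd3 (0.651 CPM). Such an SD is no measure of how closely the model samples agree.

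The members, gene lists and tests were chosen with earlier results of these data known. Genes were named by rule: in each comparison, called members and up to 6 higher and 6 lower with a mean of at least 1 CPM and no overlap between groups, plus 40 members with textbook roles, and 5 with the largest range over samples and a mean of at least 5 CPM. Some genes the rule names are not reported here. Other members and partner genes were named after their values were seen, mostly at an unadjusted p under 0.05. Alternatives were DESeq2 1.42.0, limma 3.58.1 (voom), other scalings and filters, other treatment of the paired columns, the compared groups alone, and leaving out each sample.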

Additional observations from a re-analysis of the deposited data

How the results depend on the processing

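Of 61 fold changes of named genes refitted under 17 alternatives, those that could be fitted kept their direction, 971 staying on the same side of the threshold and 60 newly passing it. These genes were picked in the same data for no overlap between groups or an unadjusted p under 0.05. That choice largely fixed their direction in advance, so the kept direction is no evidence that the differences are sound. The count of potassium channel genes called, 0 in each comparison, moved in 2 of the 3 comparisons. With DESeq2 it was 7 for model against control and 5 for electroacupuncture against model, and with all 11 columns as separate libraries 11 and 9, where near-identical columns count as replicates. With the compared groups alone it was 3 for model against control and stayed at 0 for electroacupuncture against model. Leaving out 1 sample gave 0 to 7 for model against control (7 without electroacupuncture A, 4 without model A) and 0 to 3 for electroacupuncture against model. For electroacupuncture against control it was 0 under every alternative run, although DESeq2 gave 7 members and edgeR 4 at an unadjusted p under 0.05. Over all genes, DESeq2 called 763 and 698 genes in the first 2 comparisons, and separate columns 1129 and 1666, against 1 and 0. Total counts in place of TMM moved the median log2 fold change of all genes in model against control from 0.02 to 0.13, and that of the members from 0.28 to 0.38. For electroacupuncture against control the members' median turned from -0.04 to 0.04 with total counts. Fits that leave out a model sample rest on 1 model sample, assumed to vary like the other groups. The cause of these changes was not tested. No paired analysis was possible because the columns are not tied to numbered samples of the labels, and near-identical columns of a group carry different numbers. Members near 1 CPM, such as Kcnk5, Kcns2 and Kcnh5, rest on few counts per sample.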

Other observations

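Genes that place potassium channels at the axon and the related pacemaker channels showed a few single-sample values not described above. Ank3, the ankyrin that holds Kcnq channels at the axon initial segment, measured 327, 361 and 316 CPM for control, 236 and 6.71 CPM for model, and 237, 289.8 and 328 CPM for electroacupuncture, so model B was far below all other samples. Sptbn4, the spectrin of the same structure, measured 306, 365 and 271 CPM for control, 173 and 235 CPM for model, and 187, 240.5 and 275 CPM for electroacupuncture (model against control log2 fold change -0.62, SE 0.24, edgeR adjusted p = 0.318). Hcn2, a pacemaker channel, measured 32.2, 31.6 and 33.4 CPM for control, 29.6 and 57.9 CPM for model, and 56.5, 40.2 and 30.1 CPM for electroacupuncture, highest in model B and electroacupuncture A. Abcc9, the sulfonylurea receptor that pairs with Kcnj8 in mural cells, measured 4.03, 4.77 and 7.87 CPM for control, 4.6 and 5.56 CPM for model, and 21.7, 6.12 and 9.38 CPM for electroacupuncture, and Kcnj8 was also highest in electroacupuncture A. Its neuronal counterpart Abcc8 measured 38.1, 64 and 37.5 CPM for control, 17.8 and 44.3 CPM for model, and 12.2, 38.2 and 57 CPM for electroacupuncture. Cntn2 and Cntnap2, which hold Shaker-type channels beside the paranode, ran from 123 to 197 CPM and from 20.1 to 30.1 CPM. Cntnap1 of the paranode itself ran from 148 CPM in model A to 330.0 CPM in model B.

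Among potassium channel genes not described above, Kcnk16, a leak channel known from pancreatic islets, measured 2.84, 1.7 and 2.29 CPM for control, 7.44 and 0.982 CPM for model, and 18.5, 2.63 and 2.11 CPM for electroacupuncture, high in electroacupuncture A and to a lesser degree in model A. Kcns1, a silent subunit of sensory and cortical neurons, measured 3.94, 1.59 and 3.39 CPM for control, 0.91 and 15.3 CPM for model, and 1.99, 2.55 and 3.37 CPM for electroacupuncture, and Kcnh4 18.4, 14.1 and 11 CPM for control, 15.8 and 28 CPM for model, and 44.5, 13.6 and 10.8 CPM for electroacupuncture. The first was highest in model B and the second in electroacupuncture A. The rows under the summed count of 50 were Kcnk7, Kcnh8, Kcnq1, Kcna3, Kcnk15, Kcna7, Kcnk18, Kcng3, Kcne3, Kcnmb3 and Kcnu1, with 3 to 47 counts over all columns.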
